A study of Mus musculus with 7 samples.

Results

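S100a6, S100a8 and S100a9 are 3 genes of the S100 family, which encode small calcium-binding proteins with paired EF-hand loops. They were taken by their symbols from the authors' deposited table, where they are 3 of 769 gene models. The table compares megakaryocyte progenitors, marrow cells set on the path to megakaryocytes and so to platelets, sorted from old and young mice. The 4 libraries of the old group came from mice aged 18 to 20 months in one label and 20 months in another, and the 3 libraries of the young group came from mice aged 3 months. All mice were offspring of Flt3-Cre and mTmG parents, a wild-type background in which cells switch from Tomato to GFP once they or an ancestor have expressed Flt3-driven Cre. The cells were Lin-cKit+Sca1-CD150+CD41+, taken from Tomato-positive or GFP-positive fractions, with no separate treatment of either age group. Strain was given as C57BL/6, except for old replicate 4, which was labelled C57BL/7. Titles of the young libraries begin with mkpgy, those of old replicates 1 and 2 with mkpgo and those of old replicates 3 and 4 with mkpto. If these prefixes name the sorted fraction, which no label says, age and fraction cannot be fully told apart. No label says that the libraries came from separate mice.

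S100 proteins bind calcium, change shape and then bind partner proteins. S100a8 and S100a9 pair into calprotectin, which fills the cytosol of neutrophils and is also made by monocytes. Calprotectin binds zinc and manganese, keeping them from microbes, and outside the cell it signals through Toll-like receptor 4 and the receptor Ager. S100a6, also called calcyclin, is made in many cell types, including fibroblasts and epithelia, and is not restricted to granulocytes. S100a6 binds the ubiquitin-ligase adaptor Cacybp and several annexins. In these bulk libraries a larger share of cells with a transcript and more of it per cell cannot be told apart.

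All members lie in the S100 gene cluster of mouse chromosome 3 (GRCm38, GENCODE M21). S100a6 spans chr3:90612882-90624181 on the plus strand and S100a8 spans chr3:90668978-90670035 on the same strand. S100a9 spans chr3:90692632-90695721 on the minus strand, so that S100a8 and S100a9 point toward each other across 22596 bases. The first listed transcript of each gene has 3 exons, and its coding length was 267 bases for S100a6, 267 for S100a8 and 339 for S100a9. No other annotated gene overlapped any of them. None of the 31-base words of these transcripts (701 for S100a6, 456 for S100a8 and 482 for S100a9) occurred in an annotated transcript of another gene, so reads of that length would not be shared with a paralog.

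The 250 bases before each RefSeq start (GRCm38.p6) are shown because the 3 genes were higher together in the old group while only S100a8 and S100a9 are typical of granulocytes. For S100a6 and S100a8 the RefSeq start lies inside the GENCODE span given above, so the end of the printed stretch overlaps that span. The motifs were chosen with the sequences in view. Capitals mark TATAAA on the sense strand and, on both strands, TTNNGNAA (the C/EBP type), GAGGAAGT (the ETS type bound by PU.1), TGANTCA (AP-1) and CACGTG (an E-box). Each sequence reads 5′ to 3′ on its gene's own strand, from chr3:90612644-90612893 (plus) for S100a6, chr3:90668821-90669070 (plus) for S100a8 and chr3:90695722-90695971 (minus) for S100a9.
S100a6: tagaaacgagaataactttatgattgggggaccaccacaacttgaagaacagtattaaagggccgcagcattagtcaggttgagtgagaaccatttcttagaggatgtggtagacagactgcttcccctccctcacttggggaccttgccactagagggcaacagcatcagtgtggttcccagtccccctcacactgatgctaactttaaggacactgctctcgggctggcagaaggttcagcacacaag
S100a8: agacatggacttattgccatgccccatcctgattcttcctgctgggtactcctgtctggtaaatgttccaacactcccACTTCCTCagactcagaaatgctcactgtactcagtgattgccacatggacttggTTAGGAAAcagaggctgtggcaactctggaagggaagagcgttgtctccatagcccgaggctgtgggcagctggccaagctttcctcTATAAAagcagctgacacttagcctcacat
S100a9: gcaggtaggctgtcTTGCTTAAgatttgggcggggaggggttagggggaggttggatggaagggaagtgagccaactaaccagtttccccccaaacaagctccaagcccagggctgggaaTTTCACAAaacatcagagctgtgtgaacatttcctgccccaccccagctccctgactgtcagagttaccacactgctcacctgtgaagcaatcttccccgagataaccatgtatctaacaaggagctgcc

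The searched window also held the 50 bases from the start onward, which are not printed. S100a8 held TATAAA from -30 to -25, which falls inside its GENCODE span, TTAGGAAA from -117 to -110 and, on the opposite strand, the ETS word from -172 to -165. S100a9 held TATAAA in its first 6 bases, just after the printed stretch, and the C/EBP type on the opposite strand from -236 to -229 and from -130 to -123. S100a6 held neither of these, and its window held CACGTG at bases 15 to 20 after the start. Of 32851 windows of the same length, 8.32% held TATAAA, 40.7% the C/EBP type, 3.2% GAGGAAGT, 7.81% TGANTCA and 7.15% CACGTG. The C/EBP match is thus common, and a match shows only that the letters are present.

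All 3 genes had a higher group mean in old than in young. For S100a8 the authors' mean was 5468 normalized counts in the old libraries and 205 in the young libraries, a ratio of 26.7. S100a9, its partner in calprotectin, averaged 4112 normalized counts in the old group and 75.3 in the young group, a ratio of 54.6. Together the pair had 9580 normalized counts in old and 280 in young, a ratio of 34.2.

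S100a6 also stood higher in old, by a smaller ratio. It averaged 342 normalized counts in the old libraries and 26.4 in the young libraries, a ratio of 12.9. The authors' deposited table gives 1 mean per group, with no value per library, so overlap between the groups at the level of single libraries was not analysed here.

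**Figure D1:**
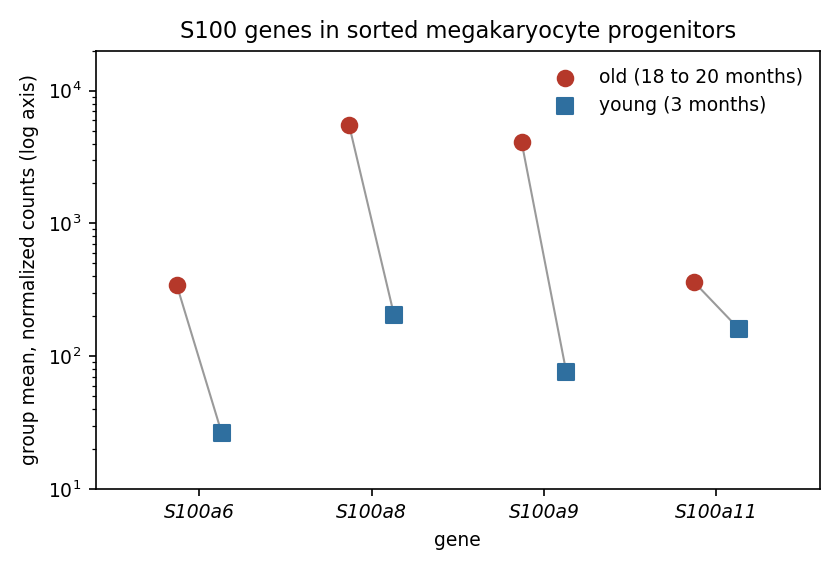
Authors' mean normalized count (log axis) of 4 S100 genes in the old group (circles) and the young group (squares), joined by a line for each gene. Old lies above young for each gene, with 5468 against 205 for S100a8 and 342 against 26.4 for S100a6.

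Levels can be set against each other between genes only per length, and per kilobase of transcript S100a8 was highest and S100a6 lowest in both groups. S100a8 had 11251 normalized counts per kilobase in old and 421 in young, and S100a9 had 8031 in old and 147 in young. S100a6 had 468 normalized counts per kilobase in old and 36.2 in young. On that scale S100a8 had 24.1 times the level of S100a6 in the old group and 11.7 times its level in the young group, and S100a9 had 17.2 times the level of S100a6 in old and 4.07 times in young. Within the pair, the level per kilobase of S100a8 was 1.40 times that of S100a9 in old and 2.87 times in young. The lengths are those of the GENCODE transcripts, and the authors' own gene models may be longer or shorter.

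The members were chosen from this contrast, so its fold changes describe them and test nothing. S100a6 had in the authors' deposited table a log2 fold change (old over young) of 3.69 with a standard error (SE) of 0.57, and its 95% interval, taken as 1.96 SE each side, ran from 2.58 to 4.81. S100a8 had a log2 fold change of 4.74 (SE 1.29, interval 2.21 to 7.27) in the authors' deposited table. S100a9 had 5.77 (SE 1.43, interval 2.98 to 8.57) in the authors' deposited table. As folds, these intervals run from 5.97 to 28.1 for S100a6, from 4.63 to 154 for S100a8 and from 7.87 to 379 for S100a9.

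The point estimates put S100a9 above S100a8 and S100a8 above S100a6, and the intervals of all 3 overlap. S100a9 exceeded S100a8 by 1.03 on the log2 fold change scale, less than the SE of either gene in the authors' deposited table. The mean log2 fold change of S100a8 and S100a9 exceeded that of S100a6 by 1.56, by 1.05 for S100a8 alone and 2.08 for S100a9 alone. The whole interval of S100a6 lies inside that of S100a8. The difference between the genes was not tested, since the rule that chose them used these values and the 3 estimates come from the same libraries.

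S100a6 had the smallest fold change of the 3 members and the smallest SE. Among the 769 gene models of the authors' deposited table, its DESeq adjusted p of 7.87e-08 was the 13th smallest. In the authors' deposited table, S100a9 followed with a DESeq adjusted p of 0.00464 (rank 130) and S100a8 with 0.0129 (rank 212). All 3 members passed the authors' adjusted p under 0.05 as higher in old, as did 2.56% of the 11778 gene models in the authors' adjustment (302 gene models; 4.13% passed in either direction), and nothing is read from the members' count because they were picked from this table. Among those 302, S100a8 had the 8th and S100a9 the 11th highest old mean in normalized counts, not scaled to length, while S100a6 stood at rank 116. By size of log2 fold change S100a9 ranked 18, S100a8 ranked 45 and S100a6 ranked 75 among the same 302.

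The SE set S100a6 apart from the pair. For the 302 gene models called higher, the median SE in the authors' deposited table was 0.62, near the 0.57 of S100a6 and under the 1.29 of S100a8 and the 1.43 of S100a9. An SE over 1 was held by 61 of the 302, and by largest SE S100a9 ranked 23 and S100a8 ranked 37. Of the 56 that had an old mean of at least 1000 normalized counts, 13 had an SE over 1 in the authors' deposited table. S100a8 and S100a9 were among these 13, together with 6 genes of the neutrophil secondary and tertiary granule list: Ngp, Ltf, Chil3, Camp, Lcn2 and Cd177. A further gene of that list with an old mean over 1000, Lyz2 (lysozyme), had an SE of 0.53 in the authors' deposited table, near that of S100a6. The other 5 of the 13 were Fcnb, Clca2, Prg2, Hp and Pglyrp1, named after their values were seen.

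**Figure D2:**
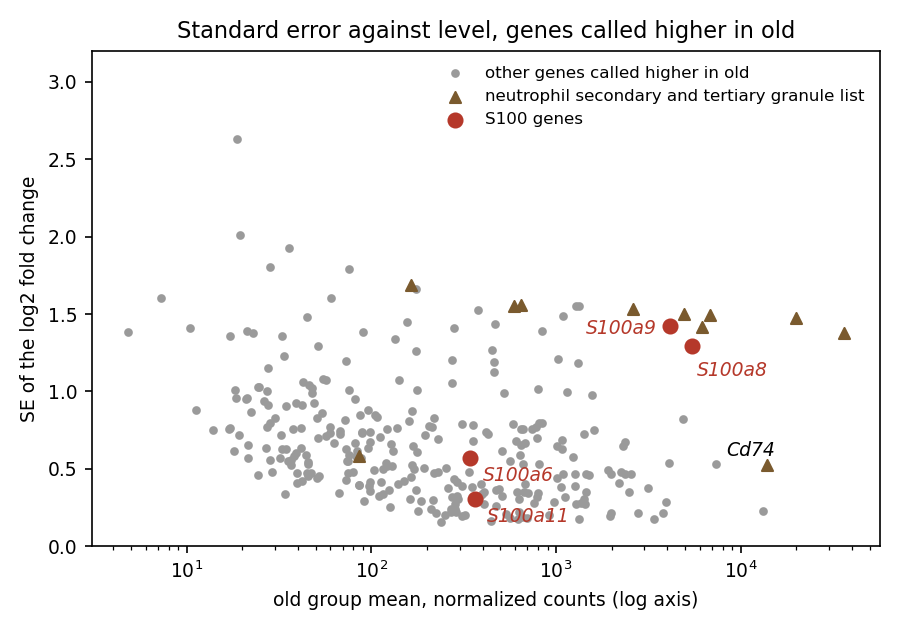
Standard error of the authors' log2 fold change against the old group mean in normalized counts (log axis), for the 302 gene models called higher in old. S100a8 and S100a9 lie at an SE of 1.29 and 1.43, near most genes of the granule list. S100a6 (0.57), S100a11 (0.31) and the granule-list genes Lyz2 (0.53) and Csf3r (0.58), a receptor gene, lie lower.

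The called genes nearest to each member in the 2 group means, by Euclidean distance on the log2 scale, are listed here for each member. For S100a9 they were Lcn2 (distance 0.32), Camp (0.72) and Chil3 (0.85), which encode the siderophore-binding protein lipocalin 2, the antimicrobial peptide precursor cathelicidin and a chitinase-like protein, all made by developing neutrophils. For S100a8 they were Cd74 (0.55), the invariant chain of MHC class II, and then Camp (1.02) and Chil3 (1.04). S100a8 and S100a9 lay 1.50 apart from each other by the same measure. Nearest to S100a6 were Lpl (0.22), a lipoprotein lipase, Lgmn (0.38), a lysosomal cysteine protease, and Tyrobp (0.44), a signalling adaptor of myeloid and natural killer cells. These distances rest on 2 group means in normalized counts, not scaled to length, so near genes need not have like levels per kilobase.

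Cd74 had means like those of S100a8, not scaled to length, and a smaller SE. It averaged 7346 normalized counts in old and 161 in young, and its log2 fold change of 5.51 had an SE of 0.53 in the authors' deposited table. Tyrobp, near S100a6 in both means, had 452 normalized counts in old and 29.9 in young with an SE of 1.27 in the authors' deposited table.

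Most genes of the neutrophil secondary and tertiary granule list were also higher in old. That list also holds the surface receptor genes Csf3r and Cxcr2. Of 13 genes of the secondary and tertiary granule list, 11 were called higher and 0 lower (background 2.56% higher and 1.57% lower), with log2 fold changes from 2.01 to 7.05 (median 6.17, against 2.37 for all 302 higher calls) in the authors' deposited table. S100a8 at 4.74 and S100a9 at 5.77 stand inside that range and below its median. This list and the others were chosen with earlier results of these data known, so their counts beside the background describe and test nothing. The summed mean of the 11 listed genes was 91789 normalized counts in old and 4864 in young. Of 6 primary granule genes, which mark the earlier promyelocyte stage, only Prtn3, a serine protease, was in the table, with 1498 normalized counts in old and 395 in young (log2 fold change 1.92, SE 0.46) in the authors' deposited table. Mpo, Elane and Ctsg, defining genes of that stage, have no value here. Of 10 monocyte and macrophage markers 3 were called higher and 0 lower, against the same background, with Cd68 at 3.64 (SE 0.62), Csf1r at 3.37 (SE 0.71) and Ctss at 4.31 (SE 1.06) on the log2 fold change scale in the authors' deposited table. Summed over its 4 listed genes, which include the uncalled Ly6c2, that list had 1735 normalized counts in old and 117 in young. The part of granulocytes or monocytes among the sorted cells in the S100 values was not tested.

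**Figure D3:**
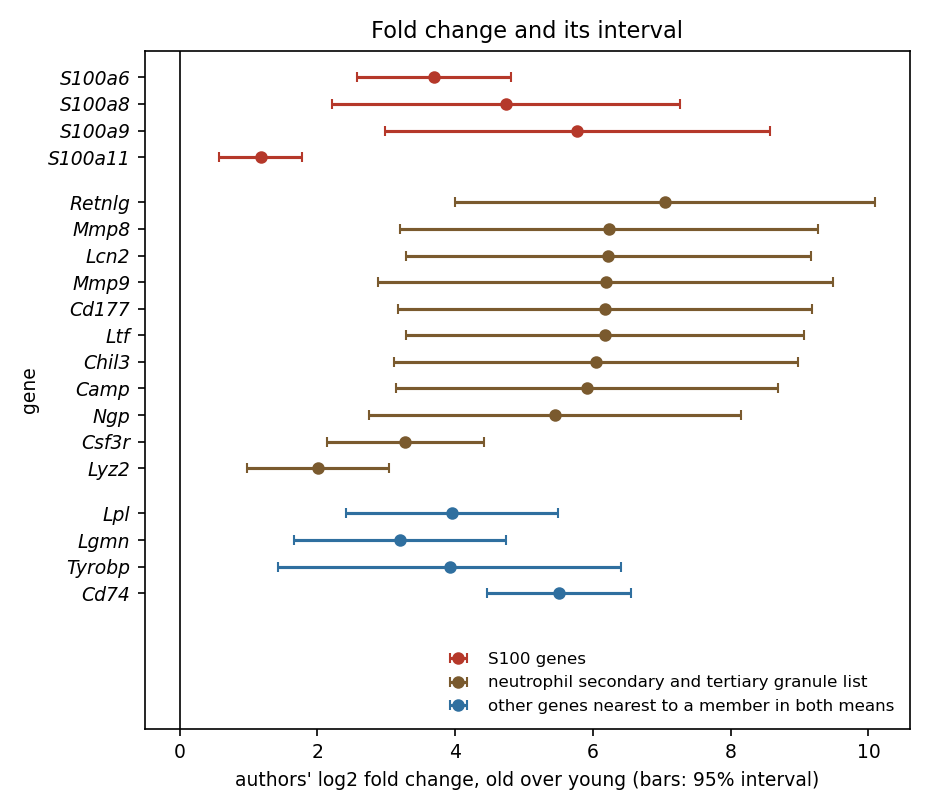
Authors' log2 fold change, old over young, with its 95% interval (1.96 SE each side) for the S100 genes, the called genes of the neutrophil secondary and tertiary granule list, and the other genes nearest to a member. S100a8 and S100a9 have wide intervals like most genes of that granule list, and the narrower interval of S100a6 (2.58 to 4.81) overlaps both.

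Few markers of the sorted cells were in the table, and those listed had higher means in old. Of 24 megakaryocyte and platelet genes 1 was called higher and 0 lower, near the background of 2.56%: the platelet adhesion receptor Selp, with 2358 normalized counts in old and 496 in young (log2 fold change 2.25, SE 0.68) in the authors' deposited table. Mmrn1, which encodes a platelet granule protein, had 603 normalized counts in old and 137 in young in the authors' deposited table and did not pass (log2 fold change 2.14, SE 0.75, DESeq adjusted p = 0.0772). Kit and Itga2b, which encode the gate antigens cKit and CD41, have no value here, so the label of the sorted cells could not be checked against them. Of the 4 gate genes, 1 was called higher and 0 lower: Ly6a, which encodes the antigen Sca1 that the sort selected against, with 98.8 normalized counts in old and 23.5 in young (log2 fold change 2.08, SE 0.67) in the authors' deposited table. The CD150 gene of the gate, Slamf1, had 228 normalized counts in old and 79.3 in young in the authors' deposited table and did not pass (log2 fold change 1.54, SE 0.55, DESeq adjusted p = 0.0856). Among other cell types, 4 of 8 mast cell, basophil and eosinophil genes, 2 of 6 T and natural killer cell genes and 2 of 9 erythroid genes were called higher. None was called lower (background 2.56% higher and 1.57% lower), and 0 of 8 B and plasma cell genes were in the table. Several of these calls rest on low means in old and young: Klrb1c (21.3 and 0.87), Cd4 (21.1 and 2.38), Prg3 (18.7 and 0), Fcer1a (44.6 and 0.47) and Ear2 (51.4 and 2.41). Prg2 averaged 1283 in old and 24.3 in young. Summed over listed genes, the mast cell, basophil and eosinophil list had 1398 normalized counts in old and 27.2 in young, the T and natural killer cell list 42.4 in old and 3.26 in young, and the erythroid list 6431 in old and 977 in young. Their part in the S100 values was not tested.

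In the wider S100 family, 1 further gene was in the table. S100a11, a widely expressed S100 protein that binds annexin A1, averaged 362 normalized counts in old and 161 in young, a ratio of 2.25. Its log2 fold change was 1.18 (SE 0.31, interval 0.57 to 1.78, DESeq adjusted p = 0.00914) in the authors' deposited table. That interval ends below the lower bound of all 3 members. The difference was not tested, since the members were picked from this contrast and all the estimates come from the same libraries. Per kilobase of transcript S100a11 had 709 normalized counts in old and 315 in young, 1.52 times the level of S100a6 in old and 8.70 times its level in young. Of the 16 annotated genes of the family list, 4 were called higher and 0 lower (background 2.56% higher and 1.57% lower). Their median log2 fold change was 4.22 in the authors' deposited table. Because 3 of the 4 are the members themselves, picked from this table, nothing about the family is read from that count or median. S100a4 and S100a10, both widely expressed, have no value here, and the median over all 11778 gene models cannot be given because only gene models with an adjusted p under 0.1 are in the table.

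Few genes of the cluster were in the table. Within 250 kb of the members GENCODE places 22 protein-coding genes, of which 12 are S100 genes. Only the 3 members and Chtop, a chromatin target of the arginine methyltransferase Prmt1, were in the table. Chtop was lower in old, with 1531 normalized counts in old and 2118 in young (log2 fold change -0.47, SE 0.15, DESeq adjusted p = 0.0395) in the authors' deposited table. S100a7a lies between S100a6 and S100a8, and S100a5 and S100a4 lie just upstream of S100a6; none of these has a value here. S100a11 lies 2825 kb from S100a9, outside this window.

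**Figure D4:**
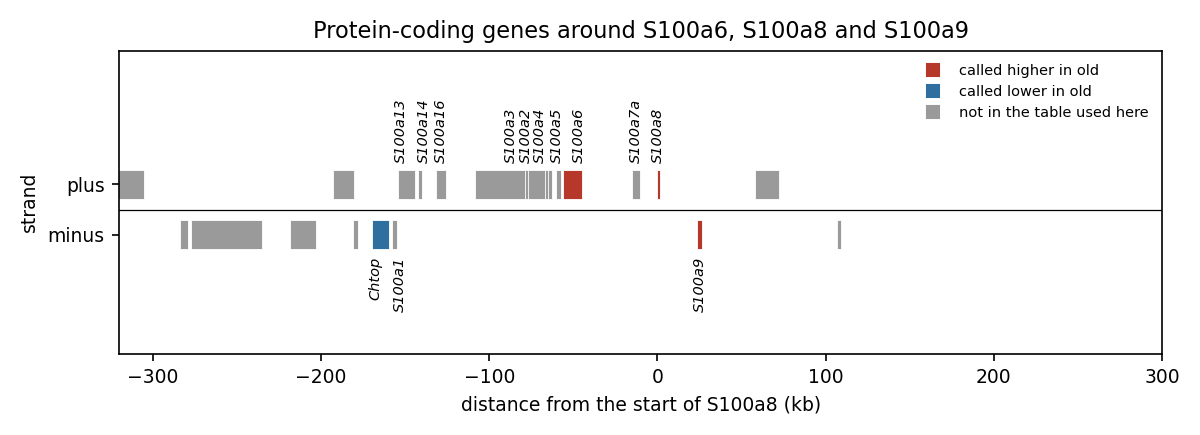
Protein-coding genes around the members by strand, placed by distance from the start of S100a8 in kb, with S100 genes and genes in the table named. Only S100a6, S100a8 and S100a9 are called higher in old and Chtop lower, and the 9 other S100 genes in the window are not in the table.

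Genes that work with the S100 proteins were mostly not in the table. The list of receptors and partners of extracellular S100a8 and S100a9, which includes Tlr4, Cd14, Ly96, Ager and Cd36, had 0 of 8 genes in it. In the list of Toll-like receptor 4 to NF-kB signalling, 1 of 25 genes was called higher and 0 lower, near the background share. It was Nfkbia, the inhibitor that holds NF-kB in the cytosol and is itself induced by NF-kB, with 2259 normalized counts in old and 450 in young (log2 fold change 2.33, SE 0.48) in the authors' deposited table. Calprotectin carries arachidonic acid to the phagocyte NADPH oxidase. Against a background of 2.56% higher and 1.57% lower, a count of 1 higher and 0 lower among 13 oxidase and arachidonate genes is not a result about that list. The called gene, Alox5ap, encodes the protein that presents arachidonate to 5-lipoxygenase and had 2476 normalized counts in old and 1056 in young (log2 fold change 1.23, SE 0.35) in the authors' deposited table.

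Among 10 granulocyte and monocyte transcription factors, 2 were called higher and 0 lower, against a background of 2.56% higher and 1.57% lower. Spi1, which encodes PU.1, averaged 1267 normalized counts in old and 458 in young (log2 fold change 1.47, SE 0.39) in the authors' deposited table. Cebpd, a C/EBP family factor, averaged 75.2 in old and 22.5 in young (1.74 on the log2 fold change scale, SE 0.55) in the authors' deposited table. Cebpe, the C/EBP factor needed for secondary granules, averaged 395 in old and 15.6 in young in the authors' deposited table and did not pass (log2 fold change 4.66, SE 1.65, DESeq adjusted p = 0.0823).

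The partners of S100a6 inside the cell gave 0 calls in either direction by DESeq out of 20 genes. A count at an unadjusted p under 0.05 cannot be made, since gene models with an adjusted p of 0.1 or more have no values, and no other tool could be run on group means. The one listed gene, Ppid, a cyclophilin that works with Hsp90, averaged 2667 normalized counts in old and 4651 in young (log2 fold change -0.80, SE 0.28, DESeq adjusted p = 0.071) in the authors' deposited table. Of 12 annexins, the calcium-dependent membrane binders that several S100 proteins attach to, 1 was called higher and 0 lower. Against a background of 2.56% higher and 1.57% lower, neither the count of 0 in 20 nor that of 1 in 12 is a result about its list. Anxa1, the partner of S100a11, averaged 795 normalized counts in old and 37.2 in young (log2 fold change 4.42, SE 1.02) in the authors' deposited table.

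Other EF-hand genes had a call in each direction. Of 49 genes, 1 was called higher and 1 lower, near the background in each direction (2.56% higher and 1.57% lower). Lcp1, the leukocyte actin-bundling protein L-plastin, averaged 1236 normalized counts in old and 175 in young (log2 fold change 2.82, SE 0.58) in the authors' deposited table. Tesc, or tescalcin, a calcium-binding protein with a role in megakaryocyte differentiation, averaged 19.7 in old and 133 in young (log2 fold change -2.80, SE 0.79) in the authors' deposited table.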

How the data were processed

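Per the labels' protocols, RNA was taken up in Trizol and made into bulk libraries with the NEBNext Ultra reagents. The submitters' processing notes name mm10, DESeq, STAR and Bowtie2 but no version or role. The authors deposited 1 comparison table. Per the file headers, it holds group means (a scaled signal, the mean normalized count), a log2 fold change (old over young) with its SE and Wald score, and a raw and adjusted p-value for each gene model. The old mean's column name, mkpxo, fits the old titles jointly. A mean over 14 samples includes samples outside this series. Only gene models with an adjusted p up to 0.0993 are in the table. The number tested, 11778, was recovered from the authors' Benjamini-Hochberg values, a step tested on simulated data. Library depth and spread are unknown, so p-values may measure technical spread.

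Computed here, with Python 3.11.15, pandas 2.3.3 and numpy 2.4.6, were ratios, ranks, 95% intervals, list counts, distances and motif matches. A call is the authors' DESeq adjusted p under 0.05. Named were all members, list genes by adjusted p, the 3 nearest called genes per member and listed genes within 250 kb. The members and lists were chosen with earlier results of these data known. No count model was fitted, since no counts per library were at hand. Alternatives changed the source of the fold change, pseudocount, scaling, adjusted p limit and mean limit.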

Additional observations from a re-analysis of the deposited data

Results flagged for a closer look

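The authors' mean over 14 samples, which include samples outside this series, was above both group means for 2 S100 genes. For S100a6 the 14-sample mean was 530 normalized counts, against 342 in old and 26.4 in young. For S100a11 it was 588, against 362 in old and 161 in young. Some of the samples outside the old and young groups therefore averaged more of these transcripts than the old libraries. The same held for 211 of the 302 gene models called higher (69.9%). For S100a8 and S100a9 the 14-sample means, 3842 and 3626, lay below the old means of 5468 and 4112. The identity of the other samples is not known here.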

How the results depend on the processing

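The fold changes had 12 alternatives (log2 ratio of the means, pseudocounts of 1 and 10, and recentring). Under all 12 the log2 fold changes of S100a6, S100a8 and S100a9 stayed above 0. The lowest was 3.27, for S100a6 with a pseudocount of 10. With the deposited SE kept unchanged, all were past the call limit. These steps alter fold changes of this size little or only raise them, so they do not test how firm the calls are. The gap between the mean of S100a8 and S100a9 and S100a6 ran from 1.56 to 1.86. Recentring cannot change this gap, and pseudocounts lowered the fold change of S100a6, the member with the lowest means, the most. The range therefore does not test how firm the gap is. At an adjusted p limit of 0.01 the S100 family had 3 calls in place of 4, the member S100a8 being the one lost. Over the whole table, that limit gave 139 higher and 41 lower calls, against 302 and 185 at 0.05, and a limit of 0.1 gave 337 lower calls. A mean count of at least 50 left 198 higher calls. Adding 0.72 to every log2 fold change set the median of the lower calls to 0. It gave 438 higher and 0 lower calls (every call higher, against 62.0%). The shift was taken from those lower calls and could only move calls toward higher. Unlisted gene models had no values to shift, so this count does not test the balance of directions. With 0.72 added and their SE unchanged, Chtop and Tesc, called lower as deposited, were no longer past the limit for a lower call. No paired analysis was possible because the table holds group means. With group means only, omission of single libraries, TMM scaling and fits to mkpgo and mkpto libraries apart were not run. Depth is unknown, so no detection limit could be set.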
